A study of Mus musculus with 8 samples.

Results

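Scavenger receptors are the surface and lysosomal receptors through which macrophages take up modified lipoproteins, dying cells, microbes and other charged particles. The 10 genes described are Msr1, Marco, Cd36, Scarb1, Scarb2, Stab1, Olr1, Cxcl16, Lrp1 and Cd68, chosen by name and followed through all probes listed under those names in the platform annotation. Of the 10 genes, 9 had a probe, with 16 probes in all among the 45281 on the array, which name 19057 genes. No probe was listed under Cd68, and that gene was not analysed here. Of the 16 probes, 11 from 8 genes read at least 100 on at least 4 arrays and were kept for testing, among 13479 kept probes overall.

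The series holds 8 Illumina beadchip arrays of cultured bone marrow macrophages. The labels give 4 libraries from C57BL/6 mice of the WT genotype (WT 1 to 4) and 4 from vav1-/- mice (KO 1 to 4), and no treatment is given for either group. Mice were of both sexes and 7 to 12 weeks of age. Vav1 relays signals from immune receptors to the actin cytoskeleton, and the design asks how macrophage expression differs without it. The sources used here do not describe the deleted allele. The labels do not say that the libraries came from separate animals, so the spread behind each p-value may be technical.

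Vav1 itself was not lower in the libraries labelled as its knockout. The Vav1 probe read 1825, 1642, 267 and 384 in WT 1 to 4 and 1805, 1699, 308 and 288 in KO 1 to 4. The readings numbered 1 and 2 were high and those numbered 3 and 4 low, whatever the label. All directions below are therefore those of the libraries labelled KO against the libraries labelled WT. The library labelled WT 4 also stood apart, with correlations of 0.839 to 0.901 with the other 7, which correlated with each other at 0.971 to 0.996. In WT 4, 19.4% of the kept probes were over 2-fold away from the average of the other 7 libraries. Log2 fold changes without it are given for each scavenger receptor and each gene of the related lists whose log2 fold change is given. The deposited values share 1 distribution, as after quantile normalization, with a median probe intensity of 86.2 on each array. Precision is limited by the number of arrays.

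Scavenger receptors form several unrelated structural classes that share a preference for polyanionic ligands. In macrophages they are best known for the uptake of oxidised or acetylated low density lipoprotein (LDL), which is not shut off by the cholesterol that enters the cell and can fill it with lipid. Others carry enzymes to the lysosome, exchange cholesterol with high density lipoprotein or act as chemokines on the cell surface.

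The promoters of Cd36, Marco, Stab1 and Lrp1 are shown because these 4 genes varied most across the libraries by the rule given with their closest genes below. Each window runs from 250 bases before to 50 bases after a RefSeq transcript start, 5′ to 3′, on the minus strand of GRCm38.p6. They lie at chr5:17835847-17836146, chr1:120504975-120505274, chr14:31168592-31168891 and chr10:127621099-127621398 in the order of the lines below. Capitals mark matches to any of 6 motifs on either strand, and no matches overlapped. The Cd36 window belongs to a start inside the annotated gene, which has several.
Cd36: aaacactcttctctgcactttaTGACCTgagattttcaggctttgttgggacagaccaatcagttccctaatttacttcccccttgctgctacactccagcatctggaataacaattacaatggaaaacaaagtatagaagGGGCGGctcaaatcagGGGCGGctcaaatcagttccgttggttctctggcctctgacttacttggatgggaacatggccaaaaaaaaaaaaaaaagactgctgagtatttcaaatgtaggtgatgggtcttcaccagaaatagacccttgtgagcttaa
Marco: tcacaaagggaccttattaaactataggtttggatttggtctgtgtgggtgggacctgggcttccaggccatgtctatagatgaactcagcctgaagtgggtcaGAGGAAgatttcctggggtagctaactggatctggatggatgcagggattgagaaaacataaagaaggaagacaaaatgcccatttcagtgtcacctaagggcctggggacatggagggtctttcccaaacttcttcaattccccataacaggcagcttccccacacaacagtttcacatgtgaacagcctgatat
Stab1: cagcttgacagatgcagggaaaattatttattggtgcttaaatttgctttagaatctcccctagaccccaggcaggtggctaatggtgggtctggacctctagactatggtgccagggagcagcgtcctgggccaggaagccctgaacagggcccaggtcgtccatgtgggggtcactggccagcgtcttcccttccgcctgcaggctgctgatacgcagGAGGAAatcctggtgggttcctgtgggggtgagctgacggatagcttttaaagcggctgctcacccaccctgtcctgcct
Lrp1: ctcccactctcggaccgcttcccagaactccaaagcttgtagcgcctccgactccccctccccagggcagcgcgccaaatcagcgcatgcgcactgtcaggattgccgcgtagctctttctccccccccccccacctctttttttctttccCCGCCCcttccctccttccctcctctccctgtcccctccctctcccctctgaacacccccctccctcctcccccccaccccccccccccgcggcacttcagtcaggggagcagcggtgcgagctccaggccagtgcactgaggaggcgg

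The motifs searched were the GC box GGGCGG, the PU.1 core GAGGAA, the AP-1 site TGANTCA, the nuclear receptor hexamer AGGTCA, the E-box CACGTG and the TATA motif TATAAA. Of 32851 promoters of the same length in the RefSeq table, 35.7% held the GC box, 28.3% the PU.1 core, 7.81% the AP-1 site, 16.3% the hexamer, 7.15% the E-box and 13.6% the TATA motif. The Cd36 window held 2 GC boxes, starting at positions -109 and -93, and 1 nuclear receptor hexamer at -228. The windows of Marco and Stab1 held the PU.1 core at -146 and -30. The Lrp1 window held a GC box at -99. Its GC content was 67.7%, against 43.0% for Cd36, 47.3% for Marco, 57.3% for Stab1 and a median of 52.7% over all promoters. These are matches of letters and not binding sites.

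Between the labels, no scavenger receptor probe passed the test. Of the 11 kept probes, 0 rose and 0 fell in the KO libraries at an adjusted p under 0.05 in limma, as for 0.0% of all 13479 kept probes. At an unadjusted p under 0.05 the counts were 0 of 11 and 44 of 13479 (0.326%), and 0 of 11 and 49 of 13479 (0.364%) without WT 4. The log2 fold changes of the 11 probes ran from -0.52 to 0.37, with 4 above and 7 below 0 and a median of -0.07, where the median of all kept probes was -0.005. Without WT 4 they ran from -0.26 to 0.43, with a median of -0.02, and again 0 passed. The median was -0.21 without WT 2. In none of the 16 probes did the 4 libraries of 1 label lie all above or all below the other 4, and the same held without WT 4. Among all kept probes the labels did not overlap in 1.1%, and in 1.64% without WT 4. The median standard error of the 11 log2 fold changes was 0.25, and 0.19 without WT 4, where it was 0.18 and 0.12 over all kept probes. Fewer cells of a type and less RNA per cell cannot be told apart in these bulk samples.

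**Figure D1:**
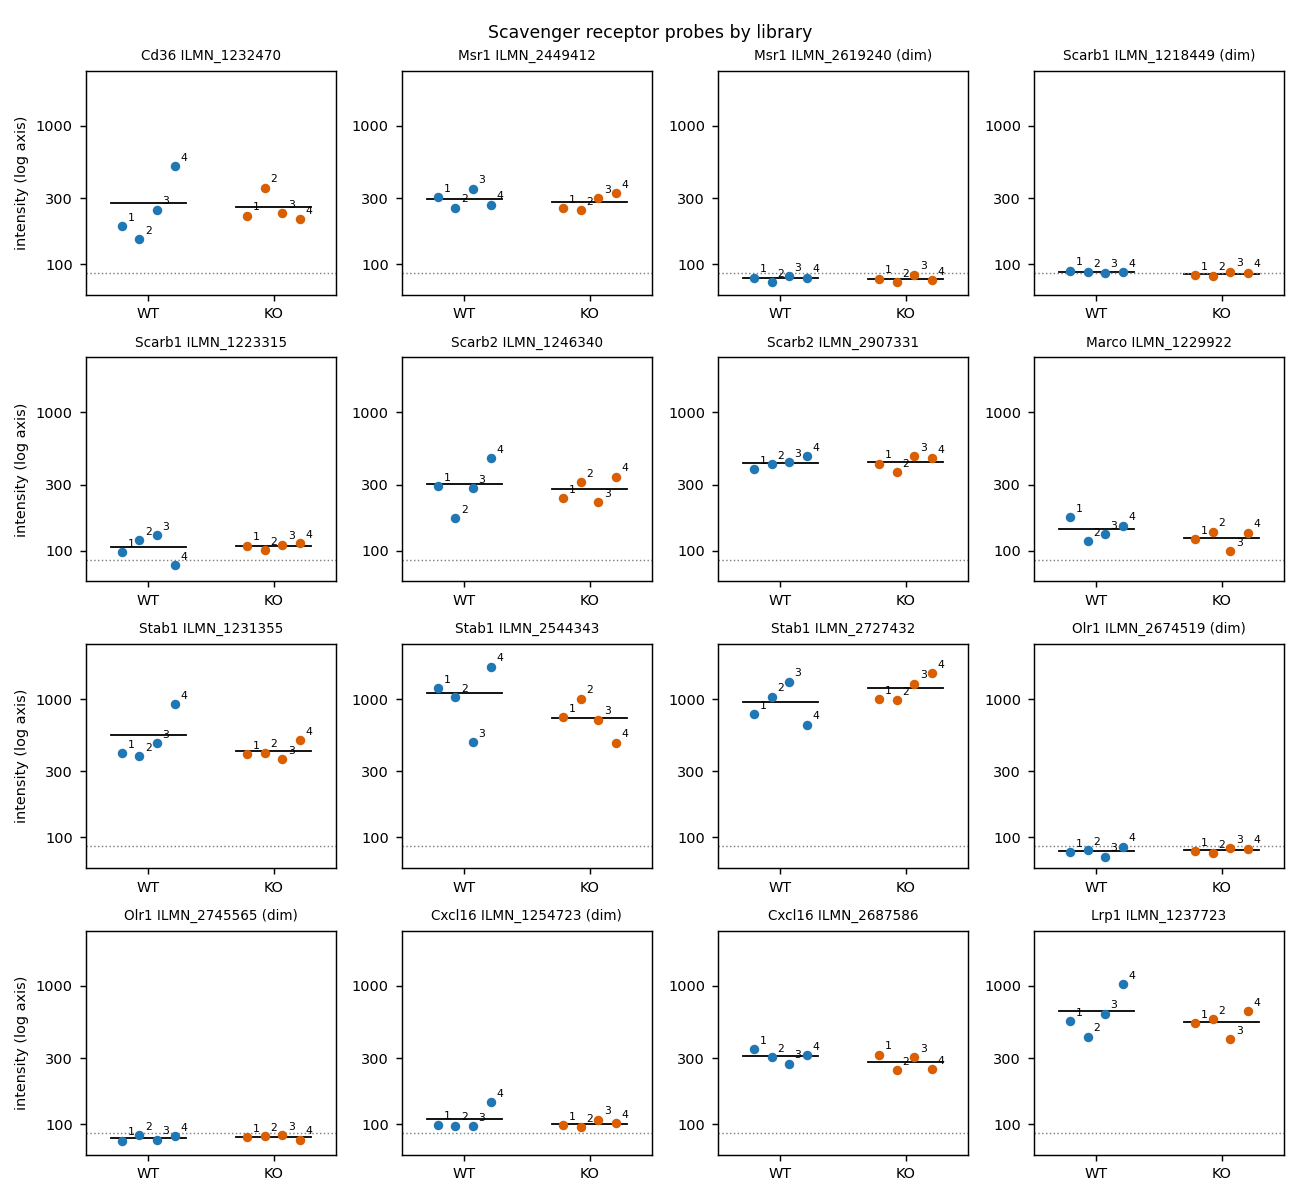
Intensity of each of the 16 scavenger receptor probes (log axis) in the 4 libraries labelled WT and the 4 labelled KO. Points are libraries with their number, horizontal bars are group means, the dotted line is the median probe intensity of 86.2, and probes marked dim were not kept. The labels overlap in every panel. Among the kept probes, WT 4 is the highest point for Cd36, Lrp1, Scarb2 (ILMN_1246340) and 2 of the 3 Stab1 probes.

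**Figure D2:**
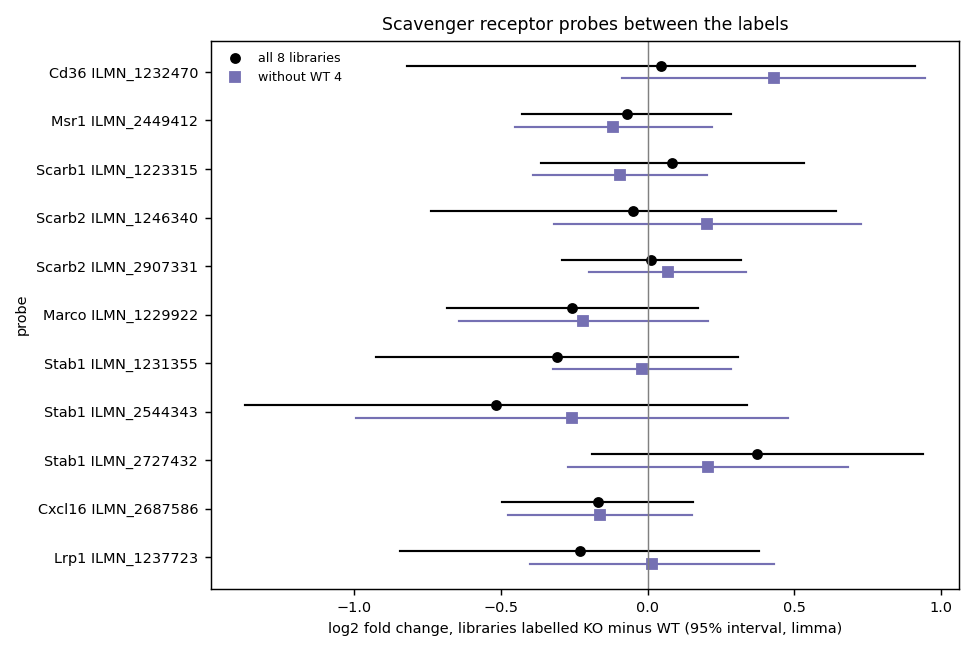
Log2 fold change of each kept scavenger receptor probe, libraries labelled KO minus WT, with its 95% interval from limma, in all 8 libraries (black circles) and without WT 4 (purple squares). Every interval contains 0, and the Cd36 value moves from 0.05 to 0.43 when WT 4 is left out.

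The class A receptors Msr1 and Marco were measured by 1 kept probe each. Msr1, on chromosome 8 (39543232 to 39642750), encodes the collagen-like receptor that binds acetylated and oxidised LDL. Its kept probe (ILMN_2449412) read 303, 256, 350 and 268 in WT 1 to 4 and 255, 245, 299 and 326 in KO 1 to 4. The labels overlapped through most of their range, and WT 4 lay inside it. The log2 fold change was -0.07 ± 0.16 (SE), with a 95% interval of -0.43 to 0.28 and an adjusted p of 0.859 from limma. Without WT 4 it was -0.12, and over the fits that left out 1 library it ran from -0.15 to 0.02. The highest of the 8 libraries was 1.43 times the lowest. The other Msr1 probe (ILMN_2619240) read 73.9 to 83.9 on the 8 arrays, below the median probe intensity of 86.2 on each, and was not kept.

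Marco, on chromosome 1 (120474538 to 120505024), encodes a receptor for bacteria and inhaled particles. It read 174, 117, 132 and 151 in WT 1 to 4 and 122, 137, 99.3 and 135 in KO 1 to 4. The highest library was WT 1 and the lowest KO 3, which alone fell short of the intensity of 100 used as the filter. The means were 123 ± 17.6 (SD, n = 4) in the libraries labelled KO and 143 ± 25.0 (SD, n = 4) in those labelled WT. The log2 fold change was -0.26 ± 0.19 (SE), with a 95% interval of -0.68 to 0.17 and an adjusted p of 0.795 in limma, and -0.22 without WT 4. Leaving out WT 1 or KO 3 gave -0.14 and -0.13. Marco was dim, so the offset of the background correction pulls this value toward 0. With an offset of 16 it was -0.38 ± 0.27 (SE), and without background correction -0.21 ± 0.16 (SE).

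Among the class B receptors, Cd36 had the widest spread. Cd36, on chromosome 5 (17781690 to 17888959), encodes a receptor for oxidised LDL, long-chain fatty acids and thrombospondin. It read 188, 152, 248 and 512 in WT 1 to 4 and 224, 358, 233 and 212 in KO 1 to 4. WT 4 and KO 2 were high within their own labels, and the other 6 libraries read 152 to 248. The means were 256 ± 68.0 (SD, n = 4) in the libraries labelled KO and 275 ± 163 (SD, n = 4) in those labelled WT. The log2 fold change was 0.05 ± 0.38 (SE), with a 95% interval of -0.82 to 0.91 and an adjusted p of 0.961 from limma. Leaving out WT 4 gave 0.43 ± 0.23 (SE), with an interval of -0.09 to 0.95 and an adjusted p of 1.00. Leaving out WT 1, WT 2 or KO 2 gave -0.09, -0.21 and -0.14. The direction of Cd36 between the labels was thus set by single libraries.

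Scarb1, on chromosome 5 (125277087 to 125341094), encodes SR-BI, the receptor that takes cholesteryl ester from high density lipoprotein. It was near background. The kept probe (ILMN_1223315) read 97.2, 119, 130 and 78.7 in WT 1 to 4 and 109, 101, 111 and 114 in KO 1 to 4. WT 4 was the lowest of the 8 libraries and WT 3 the highest, with all 4 KO libraries between them. Its log2 fold change of 0.08 ± 0.20 (SE; limma adjusted p 0.870) became -0.09 without WT 4. The second probe (ILMN_1218449) read 82.5 to 89.6 and was not kept.

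Scarb2, on chromosome 5 (92441311 to 92505657), encodes LIMP-2, which carries the enzyme glucocerebrosidase to the lysosome. Of its 2 kept probes, ILMN_2907331 read 387, 420, 437 and 480 in WT 1 to 4 and 424, 369, 481 and 467 in KO 1 to 4. The other probe, ILMN_1246340, read 294, 171, 283 and 464 in WT 1 to 4 and 240, 312, 225 and 342 in KO 1 to 4. The labels overlapped on both. The first probe was the steadiest of the 11, with a highest library 1.30 times the lowest, while the second spanned 2.71-fold, with WT 4 highest and WT 2 lowest. KO 2 was the lowest library on the first probe and lay above KO 1 and KO 3 on the second. The log2 fold changes were 0.01 ± 0.14 (SE) and -0.05 ± 0.31 (SE), with adjusted p of 0.972 and 0.949 in limma, and 0.07 and 0.20 without WT 4.

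Stab1 was measured by 3 kept probes that did not follow each other. Stab1, on chromosome 14 (31139017 to 31168651), encodes stabilin-1, an endocytic receptor of macrophages and sinusoidal endothelium that takes up acetylated LDL and the matrix protein SPARC. Probe ILMN_2727432 read 776, 1041, 1330 and 650 in WT 1 to 4 and 995, 978, 1286 and 1535 in KO 1 to 4. Probe ILMN_2544343 read 1195, 1030.5, 486 and 1710 in WT 1 to 4 and 736, 1002, 706 and 483 in KO 1 to 4. The libraries that were high on the first of these, WT 3, KO 3 and KO 4, were the 3 lowest on the second. Apart from WT 4, these are the libraries numbered 3 and 4, which also read low for Vav1. The part of the numbering in these values was not tested. WT 4 itself was lowest on the first probe and highest on the second. Probe ILMN_1231355 read 408, 386, 478 and 916 in WT 1 to 4 and 401, 410, 366 and 503 in KO 1 to 4. On that probe WT 4 read 2.17 times the mean of the other 7, whose highest was 1.37 times their lowest.

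The 3 Stab1 probes also gave opposite directions between the labels. The log2 fold changes were 0.37 ± 0.25 (SE) for ILMN_2727432, -0.52 ± 0.38 (SE) for ILMN_2544343 and -0.31 ± 0.27 (SE) for ILMN_1231355, each with an adjusted p of 0.795 in limma. Without WT 4 they were 0.21, -0.26 and -0.02. The first and second probes kept their opposite signs in each fit that left out 1 library, at 0.21 to 0.56 and at -0.88 to -0.26. Relative to its own mean, ILMN_2727432 was at -0.69 (log2) in WT 4 and 0.58 in KO 4, and ILMN_2544343 at 1.04 and -0.83 in the same libraries. ILMN_2727432 and ILMN_2544343 are annotated to the same RefSeq transcript, and the probe sequences were not used here.

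**Figure D3:**
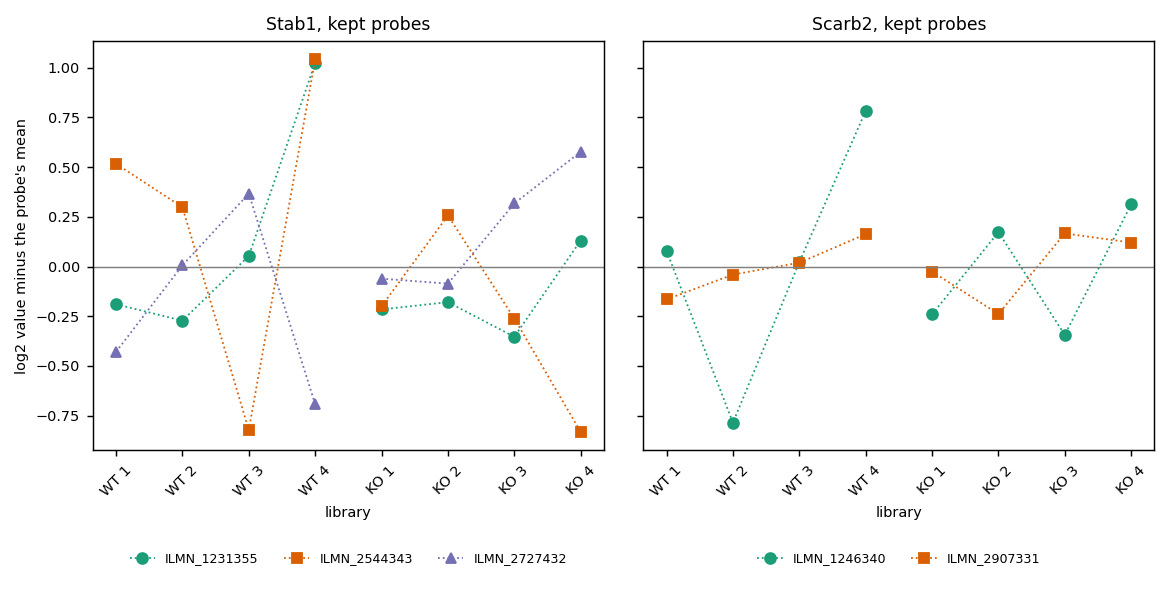
Log2 value of each kept probe of Stab1 (3 probes) and Scarb2 (2 probes) minus that probe's mean over the 8 libraries. Dotted lines only join points of a label, since libraries have no order. The Stab1 probes part in WT 4, at -0.69 (ILMN_2727432), 1.04 (ILMN_2544343) and 1.02 (ILMN_1231355). In the same order they are at 0.58, -0.83 and 0.13 in KO 4.

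Lrp1, on chromosome 10 (127538157 to 127621148), encodes a large endocytic receptor of the LDL receptor family that clears apolipoprotein E particles and alpha-2-macroglobulin complexes. It read 555, 428, 625 and 1026 in WT 1 to 4 and 533, 573, 408 and 655 in KO 1 to 4. WT 4 read 1.90 times the mean of the other 7, among which WT 2 and KO 3 were lowest. The log2 fold change was -0.23 ± 0.27 (SE), with a 95% interval of -0.84 to 0.38 and an adjusted p of 0.795 in limma. Without WT 4 it was 0.01 ± 0.19 (SE), with an interval of -0.40 to 0.43.

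Cxcl16, on chromosome 11 (70454389 to 70459984), encodes SR-PSOX, a membrane-bound chemokine that binds oxidised LDL and, once shed, attracts cells bearing CXCR6. Its kept probe (ILMN_2687586) read 347, 305, 273 and 313 in WT 1 to 4 and 317, 244, 304 and 248 in KO 1 to 4. KO 2 and KO 4 were lowest, and KO 1 and KO 3 lay within the range of the WT libraries. The log2 fold change was -0.17 ± 0.14 (SE), with a 95% interval of -0.50 to 0.16 and an adjusted p of 0.795 in limma, and -0.16 without WT 4. Leaving out WT 1 or KO 2 gave -0.11 in each case. The second probe (ILMN_1254723) read 94.8 to 108 in 7 libraries and 144 in WT 4, and was above 100 on only 3 arrays. Olr1, on chromosome 6 (129479150 to 129507350), encodes the lectin-like receptor LOX-1, known mainly from endothelium. Its 2 probes read 72.8 to 85.4 and 75.6 to 83.4 on the 8 arrays, below the median probe intensity of 86.2, so no level was measured above the array's dim probes.

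Across the libraries, the scavenger receptor probes moved in more than 1 pattern. WT 4 was the highest of the 8 libraries on 5 of the 11 kept probes and the lowest on 2. Over all kept probes these shares were 39.7% and 41.2%, against 45.5% and 18.2% of the 11. The share of highest values was near the background and that of lowest values was below it, on few probes. WT 4 was over 2-fold away from the average of the other 7 on 3 probes, those of Cd36 and 2 of Stab1, which is 27.3% against 19.4%. Among the other 7 libraries, the highest was at least 1.5 times the lowest on 6 of the 11 probes (54.5%) and on 19.1% of all kept probes. These 6 were the probes of Cd36, Marco and Lrp1, 2 of Stab1 and 1 of Scarb2. The spans were taken on deposited intensities, where background narrows those of dim probes. The shares were not matched for brightness, so their difference is not read as a trait of these genes. WT 2 and KO 3 held the lowest value of the 8 libraries on 2 and 3 probes, and KO 2 on 3.

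For the 4 genes whose brightest kept probe spanned at least 1.5-fold over the 7 libraries other than WT 4, the 3 closest named genes were found by the root-mean-square difference of mean-centred log2 values over the 8 libraries, among 7809 genes. The closest to Lrp1 were Xrn2, a nuclear exoribonuclease, at 0.05, Arpc2, a subunit of the Arp2/3 complex that branches actin, at 0.08, and Adam9, a membrane metalloprotease, at 0.09, where Lrp1 itself had an SD of 0.40. Arpc2 read 5450, 3851, 6252 and 9290 in WT 1 to 4 and 4976, 5791, 4009 and 5760 in KO 1 to 4, with the same high WT 4 and the same low WT 2 and KO 3 as Lrp1. The Lrp1 pattern, WT 4 included, was common, since 353 genes lay within 0.5 times its SD. Relative to the probe's mean, WT 4 was the farthest library for Lrp1 (0.86), Cd36 (1.13) and Stab1 (-0.69, ILMN_2727432). It was not the farthest for Marco (0.24). Closeness to Lrp1, Cd36 and Stab1 thus depends much on WT 4, and closeness without WT 4 was not computed.

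The closest to Cd36 were Ctss, a lysosomal cysteine protease, at 0.19, the mitochondrial gene ND6 at 0.21 and Vps4b, an ATPase of endosomal sorting, at 0.21, where the SD of Cd36 was 0.56 and 56 genes lay within 0.5 times that SD. Ctss read 3203, 2754, 3789 and 7761 in WT 1 to 4 and 3698, 4959, 3067 and 3698 in KO 1 to 4, high in WT 4 and KO 2 as Cd36 was. The closest to Stab1, by its probe ILMN_2727432, were Timp2, an inhibitor of matrix proteases, at 0.12, Lgals3bp, a secreted glycoprotein, at 0.13 and Abcg1, which exports cholesterol, at 0.13, where the SD of that probe was 0.39 and 42 genes lay within 0.5 times that SD. Abcg1 read 607, 817, 1091 and 400.1 in WT 1 to 4 and 739, 705, 906 and 1039 in KO 1 to 4, with WT 4 lowest. The closest to Marco were Tns1, which links integrins to actin, at 0.09, Lbr, the lamin B receptor, at 0.10 and Ifrd1 at 0.13, where the SD of Marco was 0.28 and 11 genes lay within 0.5 times that SD.

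**Figure D4:**
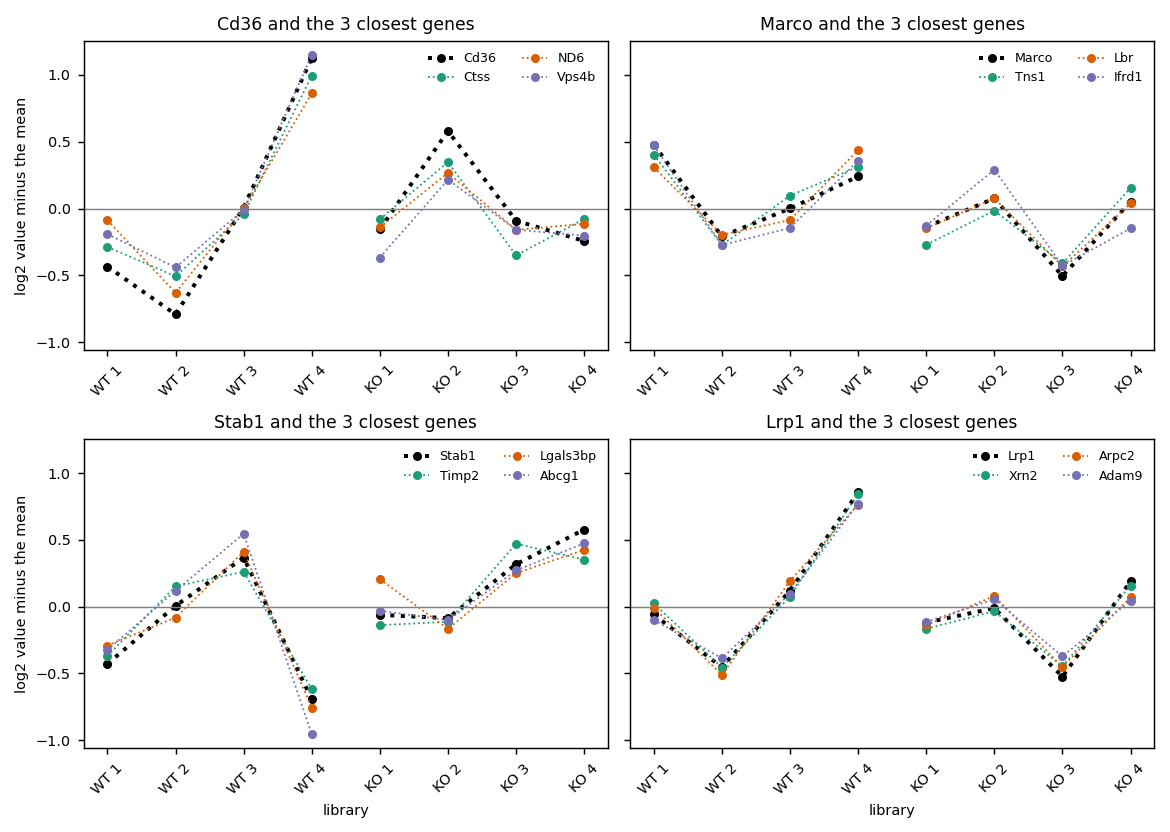
Mean-centred log2 values over the 8 libraries for Cd36, Marco, Stab1 (probe ILMN_2727432) and Lrp1 (thick black) and the 3 genes closest to each (thin). Dotted lines only join points of a label. WT 4 is the highest library for Cd36 and Lrp1 and the lowest for Stab1.

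Other genes of the pathway gave no gene past the test either. Of 14 other scavenger receptors, 14 had a probe and 7 were kept, of which 0 rose, 0 fell and the median log2 fold change was 0.008, and 0.03 without WT 4. Mrc1, the mannose receptor, was at 0.01 ± 0.17 (SE), Clec7a, the beta-glucan receptor Dectin-1, at -0.25 ± 0.34 and Cd14, the lipopolysaccharide co-receptor, at 0.25 ± 0.44. Without WT 4 they were at -0.02, 0.08 and -0.14. Cd14 read 1100, 1159, 637 and 337 in WT 1 to 4 and 1218, 1200, 578 and 621 in KO 1 to 4. As for Vav1, the libraries numbered 1 and 2 were higher than those numbered 3 and 4. Cd163, the haemoglobin scavenger receptor, read 95.5 to 123 in 7 libraries and 174 in WT 4. Of 10 genes of the LDL receptor family, 9 had a probe and 5 were kept, of which 0 passed, with a median of -0.005, and -0.02 without WT 4. Lrp12, a less studied member, read 2808 to 5142 in 7 libraries and 7481 in WT 4, with a log2 fold change of -0.36, and -0.14 without WT 4. Lrp10, another member, read 2966 to 3303 over all 8 libraries and was at -0.005 ± 0.10 (SE), and -0.02 without WT 4. Lrp8, a receptor for apolipoprotein E, read 174 to 203 in 7 libraries and 83.1 in WT 4, and its value of 0.38 became 0.02 without that library.

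Of 15 partners of the receptors, 13 had a probe and 10 were kept, of which 0 passed, with a median of -0.04, and 0.001 without WT 4. Lrpap1, the chaperone of Lrp1, read 2868 ± 276 (SD, n = 4) in the libraries labelled KO and 2783 ± 365 (SD, n = 4) in those labelled WT, or 0.05 ± 0.14 (SE) on the log2 scale, and 0.009 without WT 4. The tetraspanins Cd9 and Cd81, membrane partners of Cd36 and other receptors, were at 0.56 ± 0.47 and 0.001 ± 0.14. Cd9 read 3144 to 3844 in 7 libraries and 762 in WT 4, and without WT 4 it was at 0.001 and Cd81 at -0.03. Adam10, which sheds Cxcl16, read 115 to 166 in 7 libraries and 203 in WT 4. Cxcr6, the receptor of shed Cxcl16, read 80.6 to 86.8 in the 8 libraries, close to the median probe intensity. These 2 genes were chosen for their tie to Cxcl16 after their values were seen.

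Of 10 lysosomal genes 10 were kept and 0 passed, with a median log2 fold change of 0.004, and 0.03 without WT 4. Ctsb, a cysteine protease, was at -0.03 ± 0.15 (SE), Lipa, the acid lipase that frees cholesterol from LDL, at -0.08 ± 0.23 and Lamp1, a lysosomal membrane protein, at 0.04 ± 0.13. Without WT 4 each had the opposite sign, at 0.04, 0.06 and -0.02. Of 15 genes of apoptotic cell uptake 11 were kept and 0 passed, with a median of 0.11, and 0.004 without WT 4. Mfge8, which bridges dying cells to integrins, was at 0.13 ± 0.15, Gas6, the ligand of Mertk and Axl, at 0.51 ± 0.31 and Itgb5, an integrin chain, at 0.02 ± 0.16. Gas6 read 5340 to 7825 in 7 libraries and 2424 in WT 4, and was at 0.16 without it, where Mfge8 was at 0.09 and Itgb5 at 0.05. Of 13 lipid regulators and efflux genes, 11 had a probe and 9 were kept, of which 0 passed, with a median of 0.31, and 0.005 without WT 4. Lpl, lipoprotein lipase, was at -0.22 ± 0.18, Fabp5, a fatty acid carrier, at -0.25 ± 0.25 and Apoe, a lipid carrier, at 0.68 ± 0.71, and without WT 4 they were at -0.19, 0.005 and -0.02. Apoe read 2176, 1533, 740 and 210 in WT 1 to 4 and 2363, 1883, 791 and 896 in KO 1 to 4. It too was higher in the libraries numbered 1 and 2, and the part of the numbering was not tested. Pparg, a lipid-activated factor that drives Cd36, read 919 ± 119 (SD, n = 4) and 845 ± 58.9 (SD, n = 4). The difference was 0.12 ± 0.13 (SE) in log2, at a limma adjusted p of 0.795, and 0.08 without WT 4. Pparg was named for its tie to Cd36 after its values were seen.

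**Figure D5:**
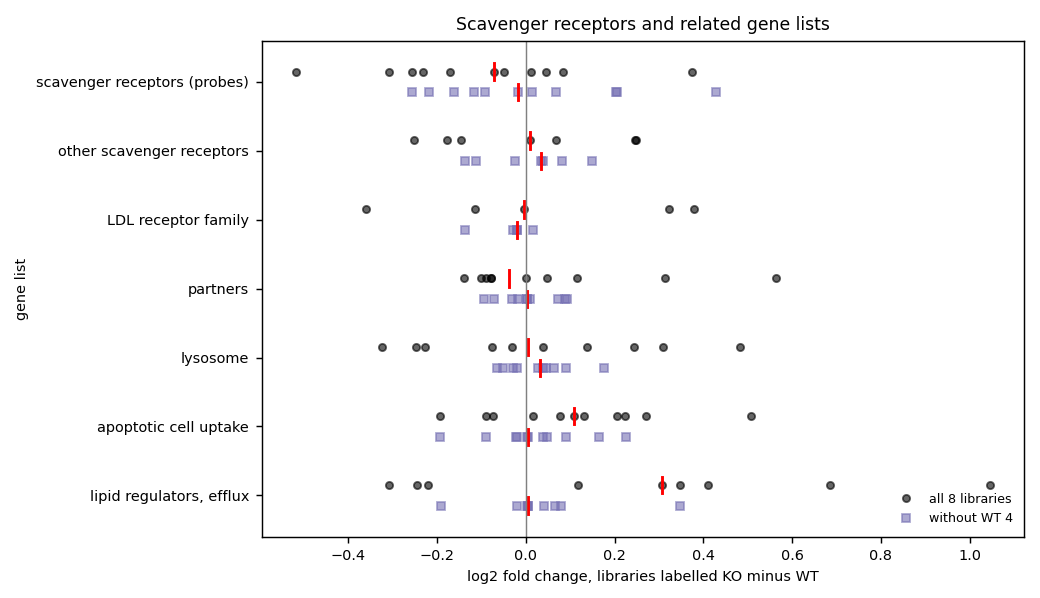
Log2 fold changes, libraries labelled KO minus WT, of the kept scavenger receptor probes and of the brightest kept probe of each gene in 6 related lists, in all 8 libraries (black circles) and without WT 4 (purple squares). Red bars are medians. No gene passed, and the medians for apoptotic cell uptake and for lipid regulators and efflux move from 0.11 and 0.31 to 0.004 and 0.005 without WT 4.

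The labelled cell type was checked against marker genes. Of 10 macrophage markers 9 had a probe and all 9 were kept, with summed intensities of 31217 to 42240 in the libraries labelled WT and 38041 to 44566 in those labelled KO. The brightest, Lyz2, read 11685 to 19319, while Itgam read 131 to 175 and C1qa 101 to 152. Itgam and C1qa were dimmer in each library than the neutrophil marker Csf3r, at 174 to 289. C1qb, a chain of complement C1q, read 4419 to 10139 in 7 libraries and 1066 in WT 4, while Adgre1, the macrophage protein F4/80, read 6026 to 8360 and 11859. Of 8 endothelial markers, 1 was kept, Vwf at 402 to 597, and the other 7, Pecam1 and Cdh5 among them, read 73.6 to 94.5 outside WT 4 and up to 121 in it. The summed endothelial intensity ran from 990 to 1232 in the WT libraries, with WT 4 highest, and from 1029 to 1135 in the KO libraries. Of 5 adipocyte markers with a probe 0 were kept, and their sum ran from 423 to 523 in the WT libraries, highest in WT 4, and from 414 to 430 in the KO libraries. Stromal and lymphocyte markers had 0 kept genes, and neutrophil, dendritic, osteoclast and erythroid or megakaryocyte markers had 3 of 8, 1 of 6, 2 of 6 and 1 of 3. The kept megakaryocyte marker Pf4 read 3485 to 7143 and the osteoclast marker Ctsk 514 to 758. Itga2b and Hba-a1, of the same list as Pf4, read 79.8 to 91.2 and 76.9 to 90.9 and were not kept. The other kept markers of these lists read no more than 289, the highest value of Csf3r. The part of these markers in the values of Cd36, Stab1 and Lrp1 in WT 4 was not tested.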

How the data were processed

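Total RNA was labelled with biotin for Illumina mouse arrays, per the labels' protocols. The authors deposited linear probe intensity values (45281 probes, 8 arrays) whose columns share 1 distribution, as after quantile normalization, with a lowest value of 68.1. The sources used here do not name the software. Another file holds 8 intensity columns with names that match no label, and these were left out. Gene symbols came from the platform annotation and were looked up in RefSeq (GRCm38.p6), which changed 0 of them; 34885 probes had 1 symbol, 18 several and 10378 none.

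Intensities were corrected with normexp (offset 50) and put on the log2 scale, and probes of at least 100 on at least 4 arrays were kept. Libraries were grouped by title and tested with lmFit and eBayes in limma 3.58.1 under R 4.3.3, with a term for the label and Benjamini-Hochberg adjustment over 13479 probes, at 0.05. Printed intensities are as deposited, while fold changes come from the corrected log2 values. No set test was run, and a listed gene stands by its brightest kept probe.

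All member probes, Vav1, the 3 brightest genes of each pathway list and the 3 genes closest to a variable member were named. Other genes named, the cell type markers among them, were chosen after their values were seen. The members, lists and this rule were chosen with earlier results of these data known. Alternatives covered the offset, uncorrected values, the filter, the eBayes prior, array weights, a replicate block, the threshold and leaving out each library. Figures were drawn with matplotlib 3.10.9.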

Additional observations from a re-analysis of the deposited data

Results flagged for a closer look

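In 2 of 32 groups of 4 values, 1 library lay far from the other 3, where chance gives about 1 in 20. Cd36 read 358 in KO 2 against 212 to 233 in the other libraries labelled KO. The dimmer Cxcl16 probe (ILMN_1254723) read 144 in WT 4, and 96.2 to 98.9 in WT 1 to 3.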

How the results depend on the processing

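With all 15 alternative fits and at an adjusted p under 0.1, 0 scavenger receptor probes and 0 probes in all passed in limma, and the lowest adjusted p of a scavenger receptor probe was 0.505. The median log2 fold change of the scavenger receptor probes stayed below 0, from -0.21 without WT 2 to -0.02 without WT 4, and was -0.07 with all 8 libraries. Of 163 probe values under alternatives, 15 turned direction, from 6 of the 11 probes, and the cause was not tested. With array weights Scarb1 (ILMN_1223315) was at -0.041, Scarb2 (ILMN_1246340) at 0.11 and Lrp1 at 0.0086. Leaving out 1 library moved Cd36 from -0.21 to 0.43, Msr1 from -0.15 to 0.022, Scarb1 from -0.093 to 0.22, Scarb2 from -0.32 to 0.20 (ILMN_1246340) and from -0.042 to 0.093 (ILMN_2907331), and Lrp1 from -0.42 to 0.015. It moved Marco from -0.37 to -0.13, Cxcl16 (ILMN_2687586) from -0.24 to -0.11 and Stab1 (ILMN_1231355) from -0.45 to -0.02, with no turn of direction. Cd36 turned without WT 1, WT 2 or KO 2, Msr1 without WT 3, Scarb1 and Lrp1 without WT 4, and the Scarb2 probes without WT 4, KO 1 or KO 3 (ILMN_1246340) and without WT 1, KO 3 or KO 4 (ILMN_2907331). Deviations from the label means correlated at 0.46, -0.17, 0.14 and 0.13 between same-numbered libraries, for numbers 1 to 4. Between libraries of different number they ran from -0.43 (WT 1 and KO 4) to 0.38 (WT 3 and KO 4). The WT mean includes WT 4, so these values cannot settle whether the numbers pair the libraries. With the replicate number as a block, 0 probes passed, the median was -0.07 and the adjusted p of the scavenger receptor probes ran from 0.833 to 0.977. Olr1 and the dimmer probes of Msr1, Scarb1 and Cxcl16 were too close to the array's dim probes for the comparison.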
